A study of Mus musculus with 12 samples.

Results

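Solute carriers are membrane proteins that move nutrients, metabolites and ions across the cell surface and the membranes of organelles. The genes described here are all those in a NanoString table of mouse peritoneal macrophage RNA whose symbol begins with Slc followed by a digit, Slc16a3 left out, which gave 23 of 1448 genes. By substrate they fall into 8 amino acid carriers, 5 glucose and hexose carriers, 3 lactate carriers and 7 others. The nCounter reads transcripts directly, by counting colour-barcoded probes bound to them. Peritoneal macrophages came from aged mice of 20 to 22 months and young mice of 3 to 4 months. At each age 3 mice received PF-044, a compound that blocks EP2 (a receptor of prostaglandin E2), by oral gavage for 6 weeks at a daily 2.5 mg/kg, and 3 mice have no agent in their labels and are called untreated. The labels do not say whether untreated mice were gavaged with vehicle, nor the strain or sex of the mice.

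A macrophage takes up glucose through facilitative carriers of the SLC2 (GLUT) family and exchanges lactate and pyruvate with its surroundings through SLC16 (MCT) proton-linked carriers. Large neutral amino acids enter mainly through a heterodimer of a light chain, encoded by Slc7a5 (LAT1), and the glycoprotein that carries it to the membrane, encoded by Slc3a2 (CD98 heavy chain), while glutamine enters through the carrier encoded by Slc1a5 (ASCT2). These carriers contribute to how much substrate reaches glycolysis, the tricarboxylic acid cycle and the mTORC1 nutrient sensor.

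Values are the authors' log2 normalized expression, and the lowest of them, 4.32 (20 on a linear scale), is a floor shared by many genes. A gene's values can be compared between mice, but not with those of another gene, because probes differ in efficiency. The 167 carrier values above the floor are all whole multiples of a step specific to each sample, within 0.008 linear units, so counts could be inferred. In samples where a step exceeded 1, the lowest inferred count was 20, and the floor then hides every gene below 20 counts. That limit was 4.32 to 4.33 in 9 samples, 4.62 and 4.74 in aged untreated replicates 1 and 3, and 6.25 in aged untreated replicate 2. The inferred counts over 655 genes summed to 92672 in that mouse, against 265551 to 482587 in the other 11 samples, and 741 genes lay at the floor there, so results that rest on it are given with and without it. In bulk RNA, fewer cells of a type and less RNA per cell cannot be told apart.

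Of the 23 carriers, 19 were above the floor in at least 1 mouse and were tested, and 10 were above it in all 12. Among those not tested, Slc7a11 (the light chain of the cystine and glutamate exchanger), Slc16a8 (a lactate carrier of the retinal pigment epithelium) and Slc16a13 were at the floor in every sample. Slc2a5 (the fructose carrier), Slc6a18, Slc7a9 and Slc16a11 were above it in aged untreated replicate 1 only, at 5.21, 4.88, 5.11 and 5.16, which are 30, 24, 28 and 29 inferred counts. In that mouse 333 genes lay at the floor, against 404 to 741 in the other 11 samples. Limma's array weights, which count noisier samples less, were lowest for it, at 0.09, against 0.18 for aged untreated replicate 2. No comparison of these 4 carriers passed the test.

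In untreated mice 9 of 19 tested carriers passed limma's test at an adjusted p of 0.05, 2 higher and 7 lower in aged mice, where 54.0% of all 1190 tested genes passed, 21.2% higher and 32.9% lower. The lower ones were 4 amino acid carriers (Slc3a2, Slc1a5, Slc3a1, Slc6a19), the intracellular hexose carriers Slc2a6 and Slc2a8 and the lactate carrier Slc16a1, and the higher ones were Slc2a1 and Slc27a1. The median log2 change was −0.09 over the 19 carriers and −0.07 over all tested genes, and the carriers' share, 47.4%, was not above that of all genes. The split depended on the scaling: centring each sample on 4 reference genes, which moved the median of all genes to 0.34, gave 7 higher and 2 lower, and centring on the median of the 706 genes above the floor everywhere, which moved it to 0.12, gave 6 higher and 4 lower. Of those reference genes 2 were themselves lower in aged mice, Gusb at −1.51 and Gapdh at −0.51.

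With PF-044, 3 of 19 carriers passed at each age. In aged mice they were Slc1a5 and Slc2a8 higher and Slc7a5 lower, where 40.9% of all tested genes passed, 25.7% higher and 15.2% lower. In young mice they were Slc1a5 higher and Slc16a1 and Slc6a19 lower, where 14.1% of all genes passed, 8.40% higher and 5.71% lower. The test of the difference between the PF-044 effects passed for 3 carriers, with a lower effect in aged mice for Slc7a5 and Slc27a1; for the third, Slc6a19, all aged mice were at the floor, so its effect in aged mice was not measured. In this test 25.7% of all genes passed, 15.0% higher and 10.8% lower. Set against young untreated mice, aged PF-044 mice had 5 carriers lower and 0 higher, where 34.5% of all genes passed, 19.5% lower and 15.0% higher. For PF-044 in aged mice the split was 0 higher and 5 lower centred on the reference genes, and 1 and 2 centred on the median gene, and for the difference it was 0 and 4 on the reference genes. Fitted to only the groups compared, 4 of the 9 age calls missed the threshold, Slc3a1 (adjusted p = 0.053), Slc2a1 (0.059), Slc16a1 (0.084) and Slc27a1 (0.13), as did Slc1a5 (0.06) and Slc2a8 (0.12) for PF-044 in aged mice. These comparisons share the aged untreated or the young untreated mice, so their changes are not independent of each other.

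Without aged untreated replicate 2, age also gave 2 higher and 7 lower carriers, where 55.5% of all genes passed (23.5% higher, 31.9% lower). PF-044 in aged mice then gave 3 higher and 1 lower, Slc2a3 added, with 43.0% of all genes passing (24.5% higher, 18.5% lower), and PF-044 in young mice 2 higher and 2 lower, Slc27a1 added, with 19.9% passing (12.3% higher, 7.65% lower). The difference gave 1 higher and 2 lower, with 30.5% passing (16.2% higher, 14.3% lower). Aged PF-044 against young untreated gave 0 higher and 8 lower, Slc2a8, Slc16a6 and Slc6a12 added, with 41.0% passing (17.6% higher, 23.4% lower).

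The proximal promoters of 2 carriers are printed. Slc3a2 was taken because its transcript separated aged from young mice, and Slc16a1 because it was lower in aged PF-044 than in young untreated mice. Promoter sequences for build GRCm38.p6 were available for 15 of the 23 carriers. Each line below runs 5′ to 3′ on the gene's strand from 250 bases before to 50 after the annotated start, and capitals mark E-boxes (CACGTG) and GC boxes (GGGCGG, or CCGCCC on the opposite strand).
Slc3a2: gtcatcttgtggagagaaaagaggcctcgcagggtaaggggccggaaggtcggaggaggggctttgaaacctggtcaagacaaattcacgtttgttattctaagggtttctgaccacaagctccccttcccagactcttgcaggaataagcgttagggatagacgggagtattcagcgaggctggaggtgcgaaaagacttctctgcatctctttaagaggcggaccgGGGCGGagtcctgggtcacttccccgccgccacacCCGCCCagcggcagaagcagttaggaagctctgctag
Slc16a1: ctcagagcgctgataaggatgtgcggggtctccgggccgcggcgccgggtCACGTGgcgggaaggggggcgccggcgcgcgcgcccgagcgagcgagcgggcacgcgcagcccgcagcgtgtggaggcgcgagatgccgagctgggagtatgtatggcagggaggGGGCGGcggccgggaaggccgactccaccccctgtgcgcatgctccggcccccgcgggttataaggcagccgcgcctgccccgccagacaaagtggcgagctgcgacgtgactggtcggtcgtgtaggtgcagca
The Slc3a2 window, chr19:8713848-8714147 on the minus strand, holds GC boxes 22 bases before and 13 bases after the start. The Slc16a1 window, chr3:104638414-104638713 on the plus strand, holds an E-box 200 bases before and a GC box 85 bases before the start. CACGTG occurs in 7.15% of 32851 mouse windows of this length and the GC box in 35.7%. TGACG, the core of the cAMP response element, also searched on both strands, occurs in 20.8% of windows and in neither of these. A match is a description of the letters and no evidence of binding.

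**Figure D1:**
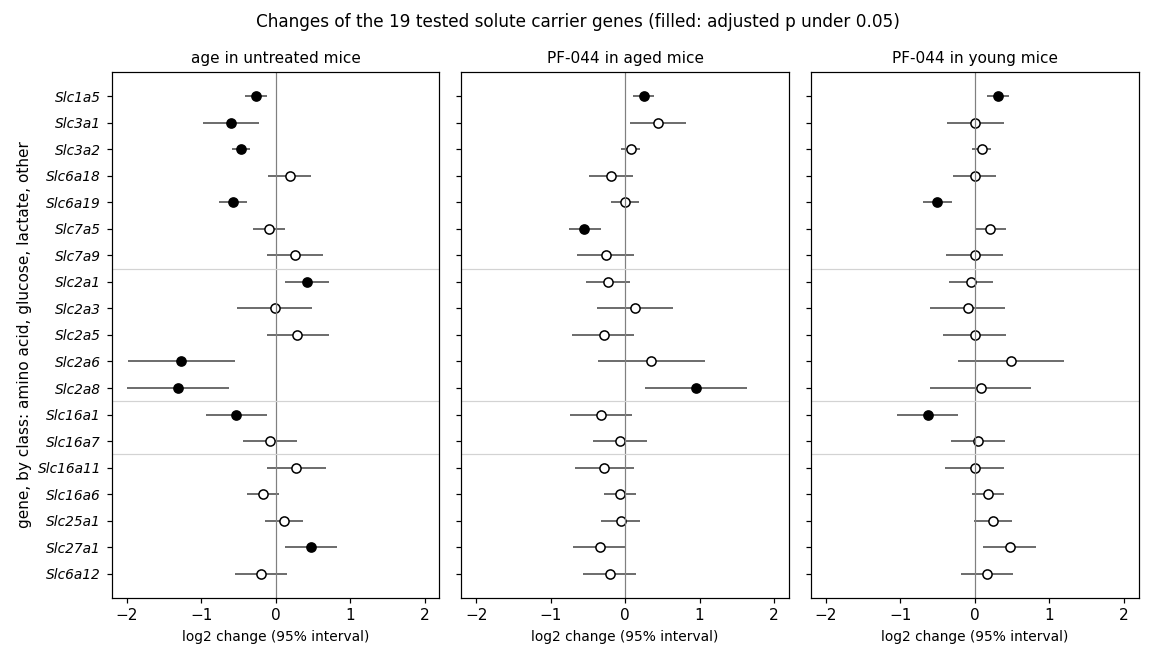
Log2 change (horizontal axis) of the tested carriers, by gene, for age in untreated mice, PF-044 in aged mice and PF-044 in young mice, with 95% intervals from limma; filled points have an adjusted p under 0.05. Slc7a5 lies at −0.55 for PF-044 in aged mice and at 0.21 in young mice, and Slc2a8 has the lowest value for age, −1.31, with a wide interval.

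Of the large neutral amino acid exchanger, the light chain transcript was lower with PF-044 in aged mice and the heavy chain transcript was lower with age. Slc7a5, the light chain, was 7.35, 7.17 and 7.20 in aged PF-044 mice, against 7.72, 7.76 and 7.88 in aged untreated mice, and 8.15, 7.98 and 8.14 in young PF-044 mice, against 7.92, 7.98 and 7.73 in young untreated mice. The aged PF-044 mice were the 3 lowest of the 12, with no overlap with any other group. Group means were 7.24 ± 0.10 in aged PF-044, 7.79 ± 0.09 in aged untreated, 8.09 ± 0.09 in young PF-044 and 7.88 ± 0.13 in young untreated mice (SD, n = 3 each). Slc7a5 fell by 0.55 with PF-044 in aged mice (SE 0.10, limma adjusted p = 0.00079), a fold of 0.685. In young mice it was 0.21 higher (95% interval 0.00 to 0.42, adjusted p = 0.19), which missed the threshold. The PF-044 effect was 0.76 lower in aged than in young mice (log2fc −0.76, SE 0.14, adjusted p = 0.0017). Against young untreated mice, aged PF-044 mice were at −0.64 (SE 0.10, adjusted p = 0.00029), while aged untreated mice were at −0.09 (adjusted p = 0.44). The calls for PF-044 in aged mice, for the difference and for aged PF-044 against young untreated mice passed under every alternative run.

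Slc3a2, the CD98 heavy chain, was 8.66, 8.54 and 8.61 in aged PF-044 mice, against 8.57, 8.46 and 8.53 in aged untreated mice, and 9.02, 9.09 and 9.14 in young PF-044 mice, against 8.96, 8.96 and 9.04 in young untreated mice. All 6 aged mice lay below all 6 young mice, with or without PF-044. The age change in untreated mice was −0.46 (SE 0.06, adjusted p = 2.5e-05). The PF-044 difference was 0.08 in aged mice (95% interval −0.05 to 0.20) and 0.10 in young mice (−0.03 to 0.22), neither past the threshold, and the difference between these effects was −0.02 (−0.20 to 0.16). Aged PF-044 mice were at −0.39 against young untreated mice (SE 0.06, adjusted p = 0.00024). Centred on the reference genes, the age change was −0.06 (adjusted p = 0.61) and that of aged PF-044 against young untreated mice −0.21 (adjusted p = 0.11); both passed under the other alternatives.

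Slc1a5, the glutamine carrier, was higher with PF-044 at both ages. It was 8.67, 8.63 and 8.65 in aged PF-044 mice, against 8.25, 8.49 and 8.46 in aged untreated mice, and 9.04, 8.96 and 8.95 in young PF-044 mice, against 8.68, 8.70 and 8.63 in young untreated mice. In neither age did the PF-044 and untreated mice overlap. The change was 0.25 in aged mice (SE 0.07, adjusted p = 0.01) and 0.31 in young mice (SE 0.07, adjusted p = 0.0085), and the difference between them was −0.07 (95% interval −0.27 to 0.14). With age in untreated mice Slc1a5 fell by 0.27 (SE 0.07, adjusted p = 0.0045), and aged PF-044 mice were within 0.02 of young untreated mice (log2fc −0.02, 95% interval −0.17 to 0.13). The PF-044 change in aged mice missed the threshold under all 3 alternative scalings, at 0.12 after quantile normalization (adjusted p = 0.21), 0.12 centred on the median gene (0.17) and 0.02 centred on the reference genes (0.89), and the age change was −0.10, −0.08 and 0.14 under the same 3. The change in young mice passed under every alternative.

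The remaining amino acid carriers are best known from the kidney and gut epithelium and were close to the floor here. Slc3a1, the heavy chain that pairs with the Slc7a9 light chain to carry cystine and dibasic amino acids, was 4.91, 5.08 and 4.72 in aged PF-044 mice, against 4.76 and the floor in replicates 2 and 3 of aged untreated mice, and 5.25, 4.90 and 5.07 in young PF-044 mice, against 5.24, 4.82 and 5.13 in young untreated mice. Its age change was −0.60 (SE 0.17, adjusted p = 0.012) and −0.52 without aged untreated replicate 2 (adjusted p = 0.031), and missed the threshold without young untreated replicate 1 (−0.51, adjusted p = 0.051), centred on the reference genes (−0.19, 0.41) and on the median gene (−0.41, 0.058). Aged untreated replicate 2 could have held any value up to 6.25, above all young untreated mice, and with each sample set to its own limit the change was 0.18 (adjusted p = 0.65).

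Slc6a19, a sodium-coupled neutral amino acid carrier, was at the floor in all 6 aged mice. It was 4.53 in young PF-044 replicate 1 and at the floor in the other two, against 4.86, 4.91 and 4.90 in young untreated mice. Counting error aside, the mean of aged PF-044 mice was thus at least 1.48-fold below that of young untreated mice (limma adjusted p = 0.00033). For age, no bound can be given with aged untreated replicate 2, whose limit of 6.25 lies above the young mice. Without it the age change was −0.57 (limma adjusted p = 0.00057), with aged untreated replicates 1 and 3 set to the floor. With these mice at their limits, 4.62 and 4.74, the aged untreated mean was 1.16-fold lower, a difference that was not tested. The counting intervals of the young untreated values reach down to between 4.32 and 4.42, below those limits. Centred on the reference genes, the age change was −0.16 (adjusted p = 0.27), against −0.57 as deposited. In young mice the PF-044 change was −0.50 (SE 0.09, limma adjusted p = 0.0031). Both aged groups have an SD of 0.00 because all their values are the floor, so this pooled SE is not a full measure of the spread between mice. The counting interval of the 4.53 in young PF-044 replicate 1, 3.87 to 5.12, covers all young untreated values. With each sample at its own limit, the adjusted p was 0.4 for this change and 0.23 for aged PF-044 against young untreated mice. The difference between the PF-044 effects, 0.50 (SE 0.12, adjusted p = 0.011), only restates the change in young mice, since no aged mouse had a measured value; it was 0.26 (adjusted p = 0.28) centred on the reference genes, 0.40 (0.052) on the median gene and −0.38 (0.57) with each sample at its own limit.

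**Figure D2:**
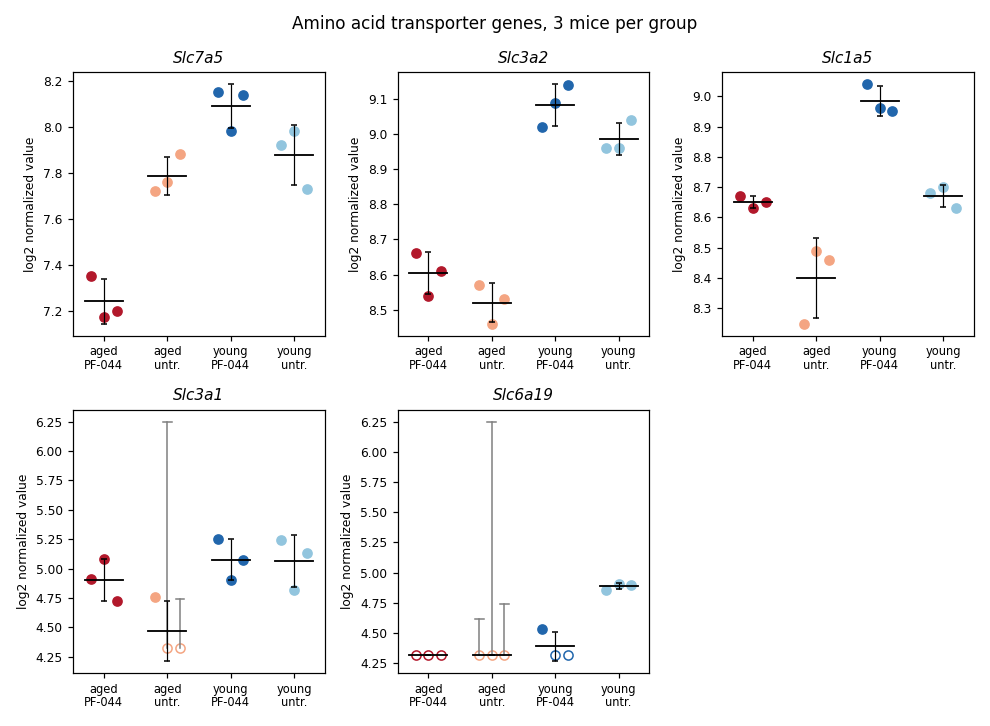
Log2 normalized expression (vertical axes) of the amino acid carriers in each mouse by group, aged PF-044, aged untreated, young PF-044 and young untreated; black lines are group means with SD, open circles lie at the floor of 4.32, and grey bars reach up to that sample's detection limit. Slc7a5 is lowest in the 3 aged PF-044 mice, between 7.17 and 7.35, and Slc3a2 separates the 6 aged from the 6 young mice.

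Among the glucose carriers, Slc2a1, which encodes GLUT1 at the cell surface, was higher with age and Slc2a6 and Slc2a8, whose products lie largely on intracellular membranes, were lower. Slc2a1 was 7.02, 7.22 and 6.81 in aged PF-044 mice, against 7.26, 7.21 and 7.26 in aged untreated mice, and 6.65, 6.86 and 6.80 in young PF-044 mice, against 6.96, 6.83 and 6.69 in young untreated mice. Aged untreated mice lay above all young untreated mice, by 0.42 (SE 0.13, adjusted p = 0.02), and this missed the threshold without young untreated replicate 3 (0.35, adjusted p = 0.08). The PF-044 difference was −0.23 in aged mice (95% interval −0.52 to 0.07) and −0.05 in young mice (−0.35 to 0.24), neither past the threshold.

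Slc2a8 (GLUT8) was 6.33, 6.14 and 6.12 in aged PF-044 mice, against 5.66, the floor and 5.77 in aged untreated mice, and 6.56, 6.65 and 6.71 in young PF-044 mice, against 6.62, 6.57 and 6.49 in young untreated mice. Even at its limit of 6.25, aged untreated replicate 2 would lie below every young mouse, but it would overlap the aged PF-044 mice. The age change was −1.31 (SE 0.31, adjusted p = 0.0035), −0.84 without that mouse (SE 0.12, adjusted p = 9.5e-05) and −0.67 with each sample at its own limit (adjusted p = 0.0047). The PF-044 change in aged mice was 0.95 (SE 0.31, adjusted p = 0.029), 0.48 without that mouse (adjusted p = 0.0071) and 0.31 at the limits (adjusted p = 0.15). It also missed the threshold when any 1 of the 3 aged PF-044 mice was left out, centred on the reference genes (0.72, adjusted p = 0.096) and with all genes tested (0.95, 0.057). In young mice the PF-044 difference was 0.08 (95% interval −0.60 to 0.76), and the difference between the effects, 0.86, missed the threshold (adjusted p = 0.18).

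Slc2a6 (GLUT6), a carrier abundant in leukocytes, was 5.48, 5.40 and 5.32 in aged PF-044 mice, against 5.88, the floor and 4.94 in aged untreated mice, and 6.89, 6.86 and 6.66 in young PF-044 mice, against 6.49, 6.52 and 5.94 in young untreated mice. Its measured values in aged mice, 4.94 to 5.88, all lay below those in young mice, 5.94 to 6.89. The age change was −1.27 (SE 0.33, adjusted p = 0.0057), −0.91 without aged untreated replicate 2 (adjusted p = 0.01) and −0.63 with each sample at its own limit (adjusted p = 0.076). Aged PF-044 mice were at −0.92 against young untreated mice (SE 0.33, adjusted p = 0.048), a call that among the 12 fits leaving out 1 mouse was lost in 9 and held only without aged untreated replicate 1 or 2 or young untreated replicate 3. It was also lost under the 3 alternative scalings, at −0.72, −0.74 and −0.86, and with all genes tested. For both Slc2a6 and Slc2a8 the fit assumes equal spread in all groups, and the SE of comparisons that use aged untreated replicate 2 is too small, and that of the others too large. The PF-044 difference for Slc2a6 was 0.35 in aged mice and 0.49 in young mice, neither past the threshold.

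Slc2a3, the high-affinity carrier GLUT3, passed in none of the 5 comparisons. It was 5.98, 6.15 and 6.09 in aged PF-044 mice, against 5.62, 6.51 and 5.70 in aged untreated mice, and 5.84, 5.74 and 6.01 in young PF-044 mice, against 6.17, 5.82 and 5.88 in young untreated mice. The value of 6.51 rests on 24 inferred counts, with a 95% counting interval of 5.87 to 7.08. Without that mouse the PF-044 change in aged mice was 0.41 (adjusted p = 0.039), against 0.13 with it (adjusted p = 0.67).

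The lactate carrier Slc16a1 (MCT1) had its highest mean in young untreated mice, 7.45 ± 0.25 (SD, n = 3). It was 6.47, 6.66 and 6.66 in aged PF-044 mice, against 6.87, 7.28 and 6.61 in aged untreated mice, and 6.96, 6.81 and 6.67 in young PF-044 mice, against 7.16, 7.63 and 7.55 in young untreated mice. Aged PF-044 and young untreated mice did not overlap, at −0.85 (SE 0.19, adjusted p = 0.0039), a call that passed under every alternative. With age in untreated mice it fell by 0.53 (SE 0.19, adjusted p = 0.033) with overlapping groups, since the 7.28 of aged untreated replicate 2, from 41 inferred counts, lies above 1 young mouse. The fall was 0.71 without that mouse (log2fc −0.71, adjusted p = 0.0025), and the call was lost without aged untreated replicate 1 or 3 (−0.50 and −0.37) and without young untreated replicate 2 or 3 (−0.43 and −0.47). It was also lost after quantile normalization (−0.29), centred on the median gene (−0.34) and on the reference genes (−0.12).

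In young mice Slc16a1 was lower with PF-044 (log2fc −0.63, SE 0.19, adjusted p = 0.047), with no overlap between the groups. That call sits at the threshold and was lost in 9 of 12 fits that each left out 1 mouse, all but those without aged untreated replicate 2 or 3 or young untreated replicate 1, and with all genes tested (adjusted p = 0.068), although the change stayed between −0.78 and −0.54. In aged mice the change was −0.32 (95% interval −0.74 to 0.09, adjusted p = 0.21), and the difference between the effects was 0.31 (−0.28 to 0.89). Slc16a7 (MCT2), the other lactate carrier above the floor, lay between 6.70 and 7.29 in all 12 mice and passed in none of the comparisons. It was 7.29, 6.89 and 6.70 in aged PF-044 mice, against 7.23, 6.83 and 7.02 in aged untreated mice, and 7.09, 7.20 and 7.14 in young PF-044 mice, against 6.99, 7.05 and 7.27 in young untreated mice.

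**Figure D3:**
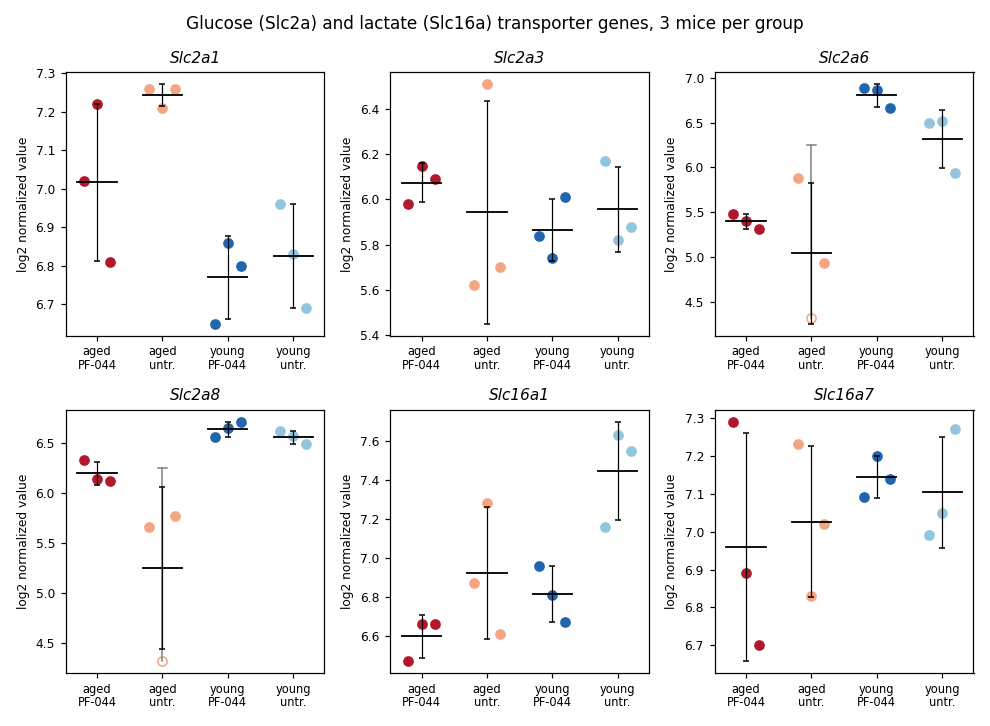
Log2 normalized expression (vertical axes) of the glucose and lactate carriers in each mouse by group, aged PF-044, aged untreated, young PF-044 and young untreated, with means and SD as black lines; open circles lie at the floor of 4.32 and grey bars reach up to that sample's detection limit. For Slc2a6 and Slc2a8 the grey bar of aged untreated replicate 2 reaches 6.25, above the other aged untreated values, and the 3 young untreated values of Slc16a1 lie between 7.16 and 7.63.

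Slc27a1, which encodes the fatty acid transport protein FATP1, differed between the ages in its PF-044 effect. It was 5.98, 6.19 and 5.83 in aged PF-044 mice, against 6.34, 6.32 and 6.37 in aged untreated mice, and 6.22, 6.32 and 6.47 in young PF-044 mice, against 5.72, 6.06 and 5.83 in young untreated mice. In both ages the groups did not overlap. The PF-044 difference was −0.34 in aged mice (SE 0.16, adjusted p = 0.11) and 0.47 in young mice (SE 0.16, adjusted p = 0.082), neither past the threshold alone. The difference between these effects was −0.81 (SE 0.23, adjusted p = 0.021). It stayed between −0.90 and −0.73 when each mouse was left out in turn and missed the threshold in 5 of those 12 fits, without aged PF-044 replicate 1 or 3, young PF-044 replicate 3 or young untreated replicate 1 or 3. With age in untreated mice Slc27a1 was 0.47 higher (SE 0.16, adjusted p = 0.026), a call lost without aged untreated replicate 3 or young untreated replicate 1 or 3; the value of 6.32 in aged untreated replicate 2 rests on 21 inferred counts.

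The other carriers outside the 3 main classes did not pass. Slc25a1, the mitochondrial citrate carrier, lay between 7.34 and 7.80 over the 12 mice, and its largest change between groups was 0.24 with PF-044 in young mice (adjusted p = 0.22). Slc16a6 lay between 7.45 and 8.09, with −0.24 in aged PF-044 against young untreated mice (adjusted p = 0.075). Slc6a12, a betaine and GABA carrier, was at the floor in all aged PF-044 mice and between 4.62 and 4.86 in young untreated mice. Counting error aside, this makes its mean at least 1.33-fold lower in aged PF-044 mice (limma adjusted p = 0.07). The counting intervals of those young untreated values reach down to between 4.03 and 4.31, below the floor. Without aged untreated replicate 2 the last 2 comparisons passed, at adjusted p values of 0.04 for Slc16a6 and 0.048 for Slc6a12.

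**Figure D4:**
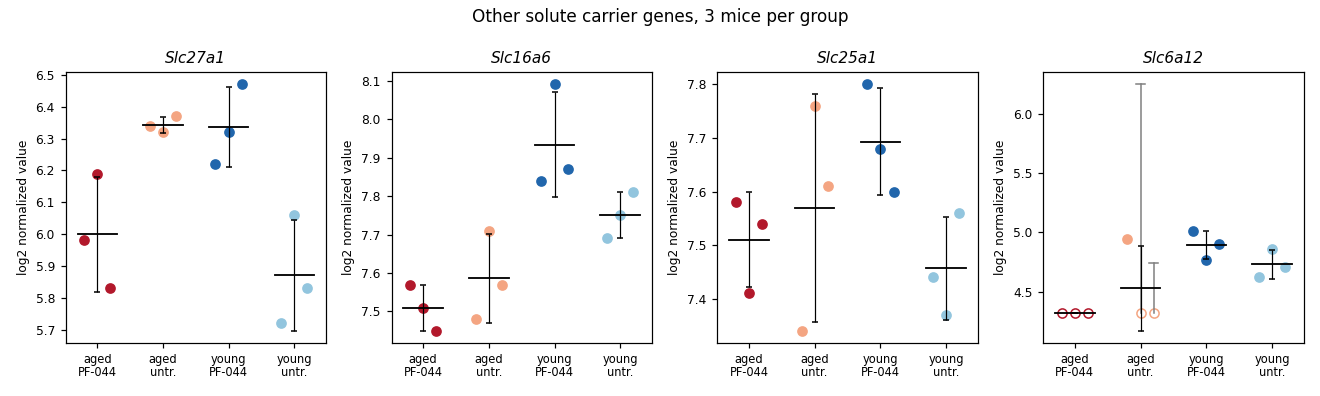
Log2 normalized expression (vertical axes) of the carriers of other substrates in each mouse by group, aged PF-044, aged untreated, young PF-044 and young untreated, with means and SD as black lines; open circles lie at the floor of 4.32 and grey bars reach up to that sample's detection limit. The highest Slc27a1 value among aged PF-044 and young untreated mice, 6.19, lies below the lowest among aged untreated and young PF-044 mice, 6.22.

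Genes of other metabolic and sensing pathways, taken as lists, were counted in the same fit, under the deposited scaling only. Their counts, and those of the marker lists, are to be read against the shares of all tested genes, 21.2% higher and 32.9% lower with age and 25.7% higher and 15.2% lower with PF-044 in aged mice. Of 13 glycolysis genes, 9 were lower and 0 higher with age (median −0.81, and 8 lower with a median of −0.48 without aged untreated replicate 2), and 8 were higher and 0 lower with PF-044 in aged mice (median 0.42). Eno1, the glycolytic enolase, was at −1.52 with age and 1.05 with PF-044 in aged mice. Slc2a1 was at 0.42 and −0.23, and its change with PF-044 did not pass. Of 17 genes of glutamine and amino acid metabolism, 2 were higher and 5 lower with age (median −0.16), and 3 were higher and 4 lower with PF-044 in aged mice (median −0.03). Without aged untreated replicate 2, 3 were higher and 5 lower with PF-044 in aged mice. Glul, the glutamine synthetase, was at −0.60 with age (adjusted p = 1.6e-05), −0.56 with PF-044 in aged mice (adjusted p = 6.3e-05) and −0.91 with PF-044 in young mice (adjusted p = 1.1e-05).

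Of 7 amino acid sensing and mTORC1 genes, 3 were higher and 1 lower with age, 1 higher and 3 lower with PF-044 in aged mice, and 1 in each direction with PF-044 in young mice. With aged untreated replicate 2 left out of the fit, 3 were higher and 1 lower with PF-044 in young mice. Atf4, a transcription factor of the amino acid response, fell by 0.24 with PF-044 in aged mice (log2fc −0.24, adjusted p = 0.0018) and was 0.25 higher in young mice (adjusted p = 0.0047), with a difference of −0.49 (SE 0.07, adjusted p = 0.0003). Slc7a5 was at −0.55 and 0.21 in the same comparisons, and the change in young mice did not pass (limma adjusted p = 0.19). Slc3a2, its heavy chain partner, was at 0.08 and 0.10, neither past the threshold. Ddit3, another gene of that response, fell with PF-044 at both ages, at −0.87 and −0.73.

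Of 7 genes of fatty acid uptake, oxidation and synthesis, 2 were higher and 5 lower with age (median −1.13). With PF-044 in aged mice 5 were higher and 2 lower (median 0.45). The synthesis enzymes Acaca and Fasn were lower with age, at −1.58 and −1.13, and higher with PF-044 in aged mice, at 0.93 and 0.45. Fabp5, a fatty acid binding protein, was at −2.37 with age and 1.51 with PF-044 in aged mice, where Slc27a1 was at 0.47 and −0.34. Cd36 and Acadl moved in the directions of Slc27a1, and the other 5 listed genes moved the opposite way. The change of Slc27a1 with PF-044 in aged mice did not itself pass (limma adjusted p = 0.11). Cd36 was at 1.78 with age and −1.42 with PF-044 in aged mice, and Acadl at 0.29 and −0.44. Of 12 genes of the tricarboxylic acid cycle and citrate, 3 were higher and 4 lower with age (median −0.15) and 1 higher and 0 lower with PF-044 in aged mice (median 0.11). The 4 lower with age became 3 without aged untreated replicate 2. Of 9 glutathione and NRF2 genes, 3 were higher and 3 lower with age (median 0.10), and 1 higher and 3 lower with PF-044 in aged mice (median −0.22). The 3 lower with PF-044 in aged mice became 2 without aged untreated replicate 2. Smaller lists were also counted. Of 3 iron handling genes, 1 was higher and 2 lower with age (median −0.92). With PF-044 in aged mice 1 moved each way, and 1 was higher and 0 lower without aged untreated replicate 2. Of 3 hypoxia factors, Hif1a passed, at 0.36 with age, −0.19 with PF-044 in aged mice and −0.26 in young mice. Without aged untreated replicate 2, 2 of the 3 hypoxia factors were higher with age (median 0.54), where 23.5% of all genes were higher. With PF-044 in aged mice 2 were then lower (median −0.51), where 18.5% of all genes were lower. Of 6 genes of nucleotide sensing in endosomes, 4 were higher and 0 lower with age (median 0.32), and 1 higher and 2 lower with PF-044 in aged mice. The 2 lower with PF-044 in aged mice became 3 without aged untreated replicate 2.

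Markers of the labelled cells and of others also moved. The summed level of 7 resident macrophage markers ran from 13.38 to 13.52 in aged PF-044 mice, against 12.29 to 12.50 in aged untreated mice. It ran from 14.18 to 14.25 in young PF-044 mice, against 14.12 to 14.16 in young untreated mice. With age 6 of 7 were lower, and with PF-044 in aged mice 6 of 7 were higher. With PF-044 in young mice 3 of 7 were lower and 0 higher, where 5.71% of all tested genes were lower. The 3 were Timd4 (−0.68), Adgre1 (−0.66) and Tgfb2 (−0.52). The 4 B cell markers summed to 14.56 to 14.75 in aged PF-044 mice, against 15.42 to 15.59 in aged untreated mice, and to 13.35 to 13.70 in young PF-044 mice, against 13.25 to 13.40 in young untreated mice, with 4 of 4 higher with age and 2 of 4 lower with PF-044 in aged mice. Transcripts of B cells were thus present in every sample, most in aged untreated mice. The 4 markers of small macrophages and monocytes summed to 11.68 to 11.96 in aged PF-044 mice, against 11.77 to 11.93 in aged untreated mice, and to 11.69 to 11.88 in young PF-044 mice, against 11.24 to 11.30 in young untreated mice. Their members went both ways, 1 higher (Ly6c1, 2.16) and 2 lower (Csf1r −1.17, Irf4 −0.27) with age, and 3 higher and 1 lower with PF-044 in aged mice. With PF-044 in young mice 2 of these 4 were higher and 0 lower, where 8.40% of all tested genes were higher. The 7 T cell markers summed to 10.80 to 10.87 in aged PF-044 mice, against 9.94 to 10.02 in aged untreated mice, and to 10.76 to 10.93 in young PF-044 mice, against 10.94 to 11.11 in young untreated mice, with 7 of 7 lower with age and 7 of 7 higher with PF-044 in aged mice. The 7 mast cell markers summed to 12.61 to 13.14 in aged PF-044 mice, against 12.44 to 12.60 in aged untreated mice, and to 13.47 to 13.81 in young PF-044 mice, against 13.31 to 13.50 in young untreated mice, with 5 of 7 lower with age, 3 of 7 higher with PF-044 in aged mice, and Kit and Tpsab1 at the floor in aged untreated mice. Of 5 tested neutrophil markers 1 was lower with age, Csf3r at −1.85. With PF-044 in aged mice Csf3r was higher at 1.32 and S100a9 lower at −1.12, while Ly6g was at the floor in all 4 groups. Without aged untreated replicate 2, 2 neutrophil markers were higher and 1 lower with age, and 1 was higher and 2 lower with PF-044 in aged mice. The T cell and mast cell markers higher with PF-044 in aged mice then numbered 6 and 2. Of 4 NK cell markers 2 were lower with age, Ncr1 and Gzma, both at the floor in the 2 aged groups. The part of these shifts in the carrier results was not tested.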

How the data were processed

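Total RNA of peritoneal macrophages from 12 mice was measured on the NanoString nCounter, 3 mice per group per the series design. The authors deposited log2 normalized values, which were not rescaled. Their processing notes list limma without a role; scaling, floor, background and probe targets were not given in the sources used here. Inferred counts are linear values divided by each sample's step; their 95% Poisson intervals cover counting error only. All 12 samples entered a limma fit (version 3.58.1, R 4.3.3; lmFit, then contrasts.fit, then eBayes on a mean trend) with 1 coefficient per group (8 residual and 3.27 prior degrees of freedom), two-sided, with Benjamini-Hochberg adjustment over 1190 genes; 258 genes at the floor everywhere were left out. The fit was tested on simulated data. Values were given per mouse for every amino acid, glucose and lactate carrier above the floor and for others that passed with a change of at least 0.5 in a comparison other than aged PF-044 against young untreated. The carriers, lists and comparisons were chosen with earlier results of these data known. Alternatives changed scaling, floor, filter, variance model and samples; setting each sample to its own limit was chosen after seeing the data. One carrier counted among the 23 is not reported here.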

Additional observations from a re-analysis of the deposited data

Results flagged for a closer look

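Limma's test of the difference between the PF-044 effects in aged and young mice passed for 3 carriers. For Slc7a5 the difference of the log2 effects, aged minus young, was −0.76 (adjusted p = 0.0017), with −0.55 in aged mice and 0.21 in young mice. For Slc27a1 it was −0.81 (adjusted p = 0.021), with −0.34 and 0.47. For Slc6a19 it was 0.50 (adjusted p = 0.011), but no aged mouse had a measured value, so its effect in aged mice is unknown and the value only restates the −0.50 of young mice; with each sample at its own limit it was −0.38 (adjusted p = 0.57).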

How the results depend on the processing

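Over 23 passing carrier changes, 435 of 510 values under alternatives kept direction and call, 71 missed the threshold without reversing (4 of them at 0.00, for Slc2a6 and Slc2a8 with a floor of 100) and 4 reversed. Slc1a5 with age became 0.14 centred on the reference genes; with each sample at its own limit, Slc3a1 with age became 0.18, Slc6a19 with age 0.31 and Slc6a19 for the difference −0.38. Centring on the reference genes shifted the median of all genes to 0.34 for age and −0.21 for PF-044 in aged mice; it moved the carriers' median to 0.31, −0.31 and, for the difference, −0.41.

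Counts of carriers moved as follows. Age (main 2 higher, 7 lower) gave 7 and 2 centred on the reference genes, 6 and 4 on the median gene, 1 and 3 with a floor of 100, 6 and 4 at own limits, 0 higher with only the groups compared, and 3 lower among genes above the floor in all samples. PF-044 in aged mice (2 higher, 1 lower) gave 0 and 5 on the reference genes, 1 and 2 on the median gene, 1 and 2 above the floor, 1 and 7 at own limits, 1 higher with all genes or a floor of 100, 0 higher with only its groups, and 2 lower with quantile normalization or no trend. PF-044 in young mice (1 higher, 2 lower) gave 2 and 1 above the floor, with all genes or a floor of 100, 2 higher without trend or with only its groups, 4 higher with array weights and 1 lower at own limits. The difference (1 higher, 2 lower) gave 0 and 4 on the reference genes, 0 and 1 with a floor of 100, 0 higher on the median gene, above the floor or at own limits, and 2 higher with quantile normalization or array weights. Aged PF-044 against young untreated (0 higher, 5 lower) gave 3 lower on the reference genes, 8 with only its groups and 1 higher with array weights. Own limits, floors and filters change which values or genes enter; the cause of the other shifts was not tested.

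Leaving out each mouse gave 0 to 2 higher and 6 to 7 lower for age, 1 to 4 higher and 1 lower for PF-044 in aged mice, 1 to 2 in each direction in young mice, 1 higher and 1 to 3 lower for the difference, and 0 higher and 4 to 8 lower for aged PF-044 against young untreated. With the replicate number as a block, the counts were 2 and 7, 2 and 1, 1 and 2, 1 and 2, and 0 and 5, and no call changed. No pairing by number was seen: 5 of 18 same-number correlations exceeded 0.1 (−0.15 to 0.33) and 4 of 12 samples were closest to their own number. Whether samples of the same number shared a batch was not tested.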
